A study of Solanum tuberosum with 8 samples.

Results

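The genes PGSC0003DMG400021426, annotated as 1-aminocyclopropane-1-carboxylate synthase 3 (ACS3), and PGSC0003DMG400016747, a member of the EIL family of transcription factors (EIL), were examined in cut potato tubers. These 2 genes out of the 42667 in the deposited table were chosen because they moved in opposite directions at 4 h after cutting in the cultivar X2, ACS3 higher and EIL lower than at 0 h. Their X2 values at 0 h and 4 h are therefore given as a description, with no test, and so is every comparison that holds one of those groups. The stated reason for the choice does not use levels in the cultivar D6 or in X2 at 12 h and 24 h. The choice was, however, made with earlier results of these data known. ACS3 is also in the study's list of strong changes in X2, which the paper does not limit to 4 h. Comparisons that hold X2 at 12 h or 24 h may therefore not be free of the choice.

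Ethylene is a gaseous plant hormone that is made in wounded tissue. ACC synthase (ACS) converts S-adenosylmethionine into 1-aminocyclopropane-1-carboxylate (ACC), commonly the rate-limiting step, and ACC oxidase turns ACC into ethylene. EIL proteins are named for their likeness to EIN3 of Arabidopsis, the transcription factor that acts at the end of the ethylene signal and switches on genes of the ethylene response factor (ERF) family. In Arabidopsis EIN3 is regulated largely through the stability of its protein, which RNA-Seq does not measure.

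RNA-Seq measured D6 tubers sampled 0, 4, 12 or 24 h from cut-wounding, with 1 library at 0 h and 3 at each later time, and tubers of X2 at the same times, with 3 libraries at 0, 4 and 12 h and 2 at 24 h. X2 is Xingjia 2, a tetraploid cultivar whose stored tubers were cut transversely, and each of its biological replicates mixed tissue of 3 tubers, taken from the epidermis to the pith. D6 is a name in the sample labels, and the methods do not describe how its tubers were grown or pooled, so p-values measure the spread between libraries, which in D6 may be technical. Values are FPKM, which scales the fragments on a gene by its length and by the depth of the library. The read totals implied by the steps between FPKM values were 24226307 to 35649617 per D6 library and 29746314 to 44921591 per X2 library. At these depths 3 reads correspond to an FPKM of 0.0201 to 0.0373 for ACS3 and of 0.0399 to 0.0740 for EIL. For X2 at 4 h, 2 columns of the table are headed as replicate 2, and the first was used. No gene descriptions could be joined to the IDs of tuber tissue markers, so the tissue label was not checked against them. In such bulk samples fewer cells of a type and less RNA per cell cannot be told apart.

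The study designed a primer pair for ACS3, the gene for which it lists quantitative PCR primers among these 2. The sequences are shown, 5′ to 3′ and in lower case throughout, as the study lists them under the ID of ACS3. They were not aligned here to the gene whose reads give the FPKM.
forward primer of ACS3: cgggttggttccgtgcat
reverse primer of ACS3: tgggagcagtggactcga

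ACS3 was near the detection limit in X2 tubers at 0 h, present in the 4 h and 12 h libraries, and low again at 24 h. In D6 its level at 4 h was like that of X2 at 4 h, but it was already low at 12 h. EIL was present at 0 h in both cultivars and was detected from 0 to 20 reads per library at every later time. The plot of FPKM by library shows both patterns.

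**Figure D1:**
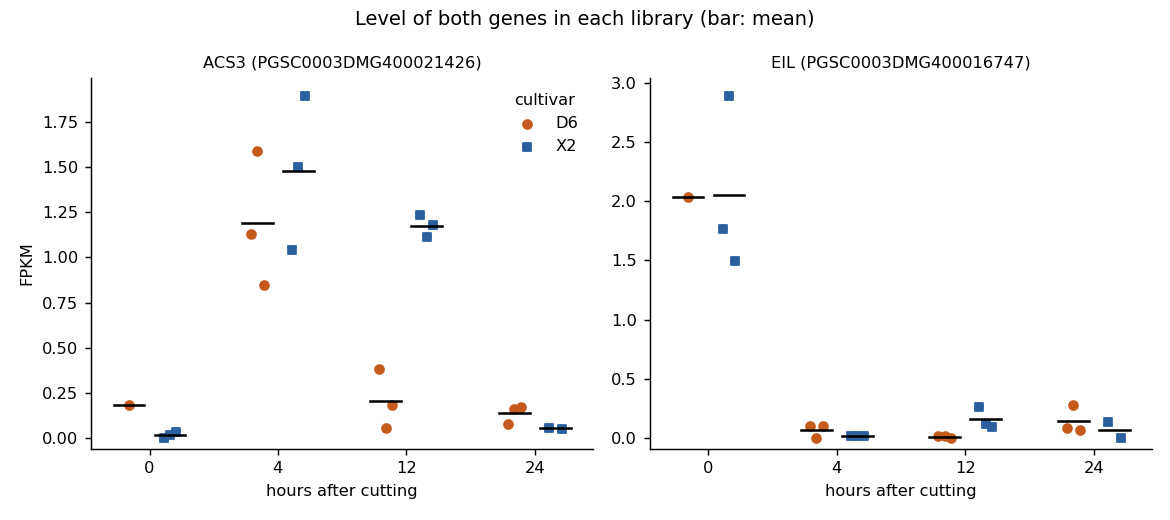
FPKM of ACS3 (left panel) and EIL (right panel) against hours after cutting, with 1 point per library of D6 (circles, left at each time) and X2 (squares, right) and a bar at the group mean. ACS3 is above 0.8 FPKM in both cultivars at 4 h and at 12 h in X2, while EIL is above 1.4 FPKM at 0 h and below 0.3 in every later library.

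In D6, ACS3 had 0.183 FPKM in the 0 h library, which holds 18 of its reads. The 4 h libraries had 1.13, 1.59 and 0.848 FPKM, from 91, 138 and 84 reads. The 12 h libraries had 0.383, 0.0581 and 0.182 FPKM, and replicate 2 with 6 reads was the lowest of the D6 libraries. The 3 libraries of 4 h thus stood above every other D6 library. At 24 h the values were 0.0760, 0.160 and 0.172 FPKM, within the range of the 12 h libraries.

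In X2, ACS3 had 0, 0.0144 and 0.0343 FPKM at 0 h, from 0, 2 and 4 reads. The 4 h libraries, which the choice of the gene used, had 1.04, 1.503 and 1.90 FPKM, from 117, 153 and 204 reads. Without replicate 2, whose column name is not unique, the 4 h values of X2 are the lowest and the highest of these 3. The 12 h libraries had 1.23, 1.11 and 1.18 FPKM, and all 3 lay within the range of the 4 h libraries. At 24 h both libraries had 6 reads, at 0.0572 and 0.0515 FPKM. Those are above every 0 h library of X2, although by few reads.

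Over the 8 groups the mean ACS3 level was highest in X2 at 4 h (1.48 ± 0.43 FPKM, SD, n = 3), then in D6 at 4 h (1.19 ± 0.37, SD, n = 3) and in X2 at 12 h (1.17 ± 0.06, SD, n = 3), and the ranges of neighbours in that order overlapped. The 5 remaining groups had means of 0.0162 to 0.208 FPKM, and none of their libraries reached those 3 groups.

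ACS3 was called higher at 4 h in D6, against a single 0 h library. The log2FC on the log2(FPKM + 0.1) scale was 2.15 ± 0.48 (SE) for 4 h minus 0 h (limma, Benjamini-Hochberg adjusted p = 0.00088), and all 3 libraries of 4 h were above the 0 h library. By the thresholds of the study, a |log2FC| of 1 or more with an unadjusted p not above 0.01, 26.5% of the 24286 genes tested were called higher in this comparison, so a call is common there. The D6 comparisons with 0 h rest on 1 library, which is assumed to vary like the other groups, so the spread of that arm comes from other libraries. The call was lost on recovered reads with limma-voom, at a log2FC of 2.32 and an unadjusted p of 0.013, and with a pseudocount of 1, at 0.87.

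After 4 h ACS3 fell in D6. The log2FC was -2.17 ± 0.34 (SE) for 12 h minus 4 h (limma, adjusted p = 3.5e-05), where 12.2% of genes were called lower. It was -2.44 ± 0.34 (SE) for 24 h minus 4 h (limma, adjusted p = 7.3e-06), where 15% of genes were called lower. Neither pair of groups overlapped. The 12 h and 24 h levels were not called against 0 h, with log2FCs of -0.02 (95% interval -1.05 to 0.996) and -0.29 (-1.31 to 0.73). At 24 h minus 12 h the log2FC was -0.26 (95% interval -0.98 to 0.46), and the groups overlapped.

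In X2 ACS3 fell between 12 h and 24 h, with a log2FC of -3.05 ± 0.38 (SE; limma, adjusted p = 1.2e-05), and the 2 libraries of 24 h were below all 3 of 12 h. In that comparison 4.13% of genes were called lower. The pooled reads, 12 at 24 h and 464 at 12 h, give a level 21.7-fold lower at 24 h, with an exact interval of 12.3 to 42.3 that covers counting error only. The pseudocount of 0.1 exceeds the ACS3 level at 24 h, and the fitted change is the smaller of both. In X2 the log2 difference of ACS3, described without a test, was 3.74 for 4 h minus 0 h. It was 3.46 for 12 h minus 0 h, 0.42 for 24 h minus 0 h and -0.27 for 12 h minus 4 h. The 0 h mean of 0.0162 FPKM also lies below the pseudocount, which shrinks the differences from 0 h. Pooled reads, 474 for 4 h and 6 for 0 h, give a level 87.0-fold higher after 4 h. The ratio to 0 h was 69.5 for 12 h and 3.20 for 24 h. These ratios rest on 6 reads and are descriptions only, since the choice of the gene used the 0 h libraries.

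The cultivars differed in ACS3 at 12 h. The log2FC of D6 minus X2 was -2.20 ± 0.34 (SE; limma, adjusted p = 9.9e-05), with means of 0.208 ± 0.164 FPKM in D6 and 1.17 ± 0.06 FPKM in X2 (SD, n = 3 each). Every D6 library was below every X2 library, and 7.13% of genes were called lower in D6 in this comparison. At 24 h the log2FC of D6 minus X2 was 0.59 (95% interval -0.22 to 1.39) and was not called, although the D6 libraries lay above both X2 libraries. As a share of the cultivar's own 4 h mean, the 12 h mean of ACS3 was 17.5% in D6 and 79.4% in X2, and the 24 h mean was 11.4% in D6 and 3.67% in X2.

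The change of ACS3 between 12 h and 24 h differed between the cultivars, at -0.26 in D6 and -3.05 in X2 on the log2 scale. The difference of D6 minus X2 was 2.78 ± 0.51 (SE; limma interaction term, adjusted p = 0.0079), where 1.56% of genes were called higher in D6. This test was added after the other values were seen. At 24 h ACS3 was under 0.2 FPKM in all 5 libraries, and at 12 h it was 0.0581 to 0.383 FPKM in D6 and 1.11 to 1.23 FPKM in X2.

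**Figure D2:**
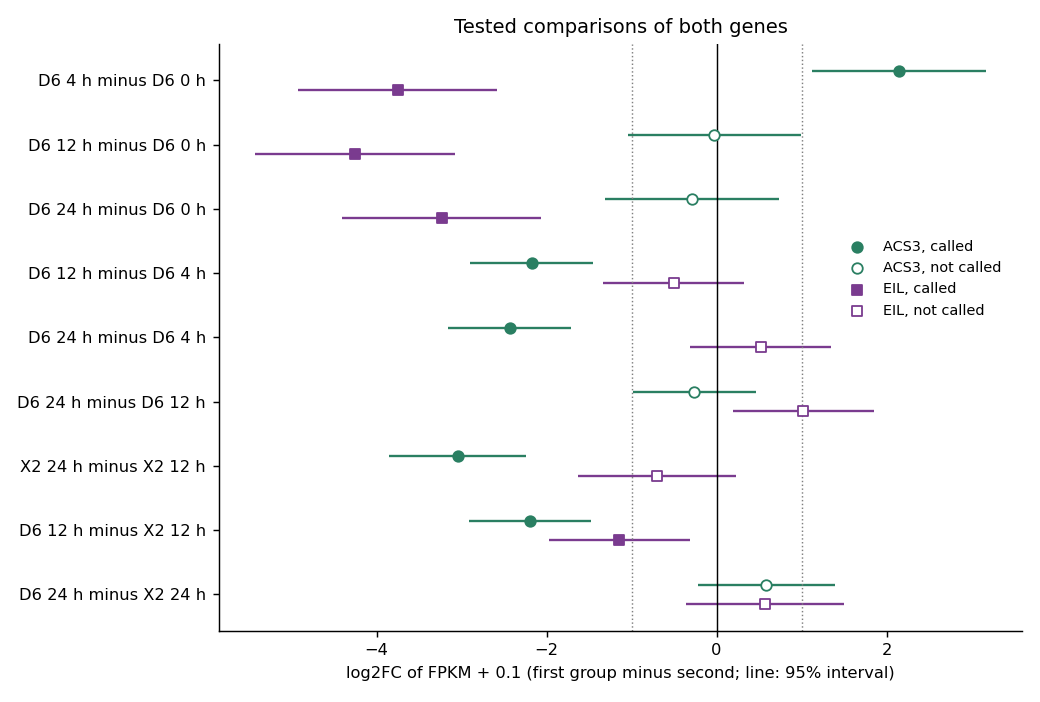
Log2FC of ACS3 (circles) and EIL (squares) in the 9 tested comparisons, first group minus second on the log2(FPKM + 0.1) scale, with 95% intervals from limma. Filled symbols passed both thresholds, a |log2FC| of 1 or more and an unadjusted p not above 0.01. Dotted lines mark 1 and -1. By these thresholds ACS3 is called in 5 comparisons and EIL in 4. For EIL, 3 of them are against the D6 library of 0 h. Those 3 are values only and no test results, since EIL passed the filter through its 0 h libraries.

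EIL was lower at each later time in D6 than at 0 h. The D6 library of 0 h had 2.04 FPKM, from 101 reads. The 4 h libraries had 0.0986, 0 and 0.1002 FPKM, from 4, 0 and 5 reads. The 12 h libraries had 0.0173, 0.0192 and 0 FPKM, from 1, 1 and 0 reads, which is at the detection limit. At 24 h they had 0.0838, 0.278 and 0.0683 FPKM, from 5, 14 and 4 reads. All 9 libraries of the later times were below the 0 h library.

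In X2, EIL had 1.77, 2.89 and 1.498 FPKM at 0 h, from 88, 203 and 88 reads. The 4 h libraries, which the choice of the gene used, had 1 read each, at 0.0176, 0.0195 and 0.0185 FPKM. The pooled 3 reads at 4 h and 379 at 0 h give a level 115-fold lower at 4 h. This ratio rests on 3 reads and is a description only, since the gene was chosen by this change. The 12 h libraries had 0.266, 0.116 and 0.0916 FPKM, from 20, 8 and 5 reads, all above the 4 h libraries. At 24 h replicate 1 had 0.133 FPKM from 7 reads and replicate 3 had 0.

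The mean EIL level was highest at 0 h, at 2.04 FPKM in the D6 library and 2.05 ± 0.74 FPKM in X2 (SD, n = 3), and these overlapped. The 6 later groups had means of 0.0122 to 0.158 FPKM, and every neighbour in the order of those means overlapped with the next. EIL averaged 0.0781 FPKM over the 17 libraries after 0 h, under the filter of 0.1, so it entered the test through its 0 h libraries. A gene that enters in that way had to be higher at 0 h than later.

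The EIL differences in D6 relative to the single 0 h library are therefore given as values, with no p. The log2FC was -3.75 ± 0.56 (SE) at 4 h, where 17.9% of genes were called lower. It was -4.26 ± 0.56 (SE) at 12 h, where 16.5% were called lower. It was -3.23 ± 0.56 (SE) at 24 h, where 14.5% were called lower. The pooled reads of EIL at 12 h and 0 h in D6, 2 and 101, give a level 166-fold lower at 12 h, a ratio that rests on 2 reads. The fitted fold changes depend on the pseudocount, and for 12 h minus 0 h the log2FC was -6.68 with a pseudocount of 0.01 and -1.59 with 1. Scaling by size factors moved the median log2FC of all genes by -0.19 to -0.22 in the D6 comparisons with 0 h. The EIL values were then -4.00 at 4 h, -4.49 at 12 h and -3.46 at 24 h, and the call of ACS3 at 4 h was kept.

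Within each cultivar EIL was not called between 2 later times in any of the tests. In D6 its log2FC was -0.50 (95% interval -1.33 to 0.33) at 12 h minus 4 h and 0.52 (-0.31 to 1.35) at 24 h minus 4 h, and the groups overlapped in both. At 24 h minus 12 h in D6 it was 1.02 (95% interval 0.19 to 1.85) with no overlap and an unadjusted p of 0.019 by limma, which missed the threshold of 0.01, and 6.67% of genes were called higher in this comparison. In X2 the log2FC of 24 h minus 12 h was -0.70 (95% interval -1.63 to 0.23), and the groups overlapped. Described without a test, EIL in X2 differed by -4.13 on the log2 scale at 4 h minus 0 h, by -3.07 at 12 h minus 0 h and by -3.77 at 24 h minus 0 h.

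Between the cultivars EIL was called lower in D6 at 12 h, with a log2FC of D6 minus X2 of -1.15 ± 0.39 (SE; limma, adjusted p = 0.032, unadjusted p = 0.0097), and the groups did not overlap. In this comparison 7.13% of genes were called lower in D6. EIL passed the filter for this test through its 0 h libraries, which are not part of the comparison. The pooled reads were 2 in D6 and 33 in X2. The call did not hold in 5 of the 6 fits that left out 1 of the 6 libraries: it was kept without X2 12 h replicate 3 and lost without each of the others, with log2FCs of -0.86 to -1.33 over all 6. At 24 h the log2FC of D6 minus X2 was 0.57 (95% interval -0.35 to 1.502), the groups overlapped, and the value was 1.18 without X2 24 h replicate 1 and -0.035 without X2 24 h replicate 3. The difference between cultivars in the change between 12 h and 24 h was 1.72 ± 0.59 (SE) for EIL, which passed the unadjusted threshold but not the correction over all genes (limma interaction term, adjusted p = 0.13).

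At 4 h in D6 the log2FCs were 2.15 for ACS3 and -3.75 for EIL, opposite in sign as in X2. Both are against the same single 0 h library, and EIL entered the test through its 0 h libraries, so these values are no independent support for the pattern by which the genes were chosen. In D6 the log2FCs against 0 h were -0.02 at 12 h and -0.29 at 24 h for ACS3 and -4.26 at 12 h and -3.23 at 24 h for EIL. At 24 h both genes were under 0.3 FPKM in every library of both cultivars. Over all 21 libraries Pearson r between the genes on the log2(FPKM + 0.1) scale was -0.50, over the 17 libraries after 0 h it was -0.00375, over the 10 of D6 it was -0.20 and over the 11 of X2 it was -0.67. The libraries share their time points and few reads lie behind many values, so these coefficients are descriptions only.

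**Figure D3:**
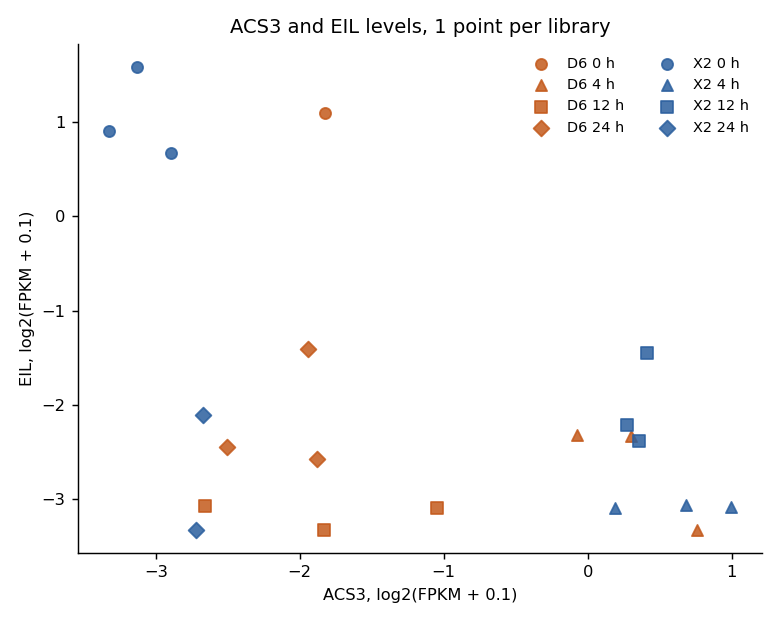
EIL against ACS3 on the log2(FPKM + 0.1) scale, with 1 point per library, colour for cultivar and symbol shape for hours after cutting. The 0 h libraries lie at the top left with high EIL, those of 4 h and of X2 at 12 h at the lower right with high ACS3, and the others at the lower left where both genes are low.

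The other EIL genes moved in different directions after cutting, and PGSC0003DMG400016747 was a minor part of their summed level. The study lists 4 of them, chosen on the X2 libraries, so their X2 changes are no independent evidence of a direction. FPKM is per length, and on that scale PGSC0003DMG400016747 made up 0.0467% of the summed level of the 5 EIL genes in D6 at 4 h, against 0.906% at 0 h. In X2 it made up 0.0131% on average at 4 h, against 0.358% at 0 h. The sum at 0 h was 225 FPKM in D6 and 574 FPKM in X2, and most of it came from PGSC0003DMG400008712.

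At 4 h minus 0 h in D6, 2 of the 4 other EIL genes were called higher and 1 lower, and their median log2FC was 0.63, beside 44.5% of all genes called in either direction and a median of 0.16 over all genes. PGSC0003DMG400005914 had 77.2, 74.7 and 84.0 FPKM in D6 at 4 h, against 19.1 FPKM in the 0 h library. Its log2FC was 2.04 ± 0.09 (SE; limma, adjusted p = 1.4e-11), and at 12 h minus 4 h it fell by 1.16 on the log2 scale. In X2 it had 74.0, 73.6 and 72.0 FPKM at 4 h, against 19.0, 19.6 and 20.1 FPKM at 0 h, close to the D6 values.

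PGSC0003DMG400021381 had 3.12, 4.05 and 5.04 FPKM at 4 h in D6, against 1.27 FPKM at 0 h, with a log2FC of 1.58 ± 0.28 (SE; limma, adjusted p = 8.8e-05). At 24 h it had 3.39, 3.42 and 2.66 FPKM in D6, against 0.747 and 1.16 FPKM in X2, where it was called higher in D6 with a log2FC of 1.65 ± 0.22 (SE; limma, adjusted p = 2.7e-05) and 7.16% of genes were called higher. It was the one gene of the 4 that was called between cultivars at 24 h, and none of the 4 was called at 12 h. Of the 24286 genes tested, 3371 were called between cultivars in either direction at 24 h and 3588 at 12 h. Counts of 1 and 0 among 4 genes do not set these genes apart from that background.

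PGSC0003DMG400008712 was the gene of the 4 that was called lower at 4 h in D6, against the single 0 h library, where 17.9% of all genes were called lower. It had 30.7, 25.8 and 23.3 FPKM at 4 h in D6, against 168 FPKM at 0 h, with a log2FC of -2.67 ± 0.14 (SE; limma, adjusted p = 8.3e-11). It stayed called lower than 0 h at 12 h and 24 h in D6, with log2FCs of -2.67 and -2.36. The shares of all genes called lower in these comparisons with the same 0 h library were 16.5% at 12 h and 14.5% at 24 h. In X2 PGSC0003DMG400008712 had 37.1 to 40.6 FPKM at 4 h, against 527, 516 and 521 FPKM at 0 h, all above the D6 library of 0 h. PGSC0003DMG400005915 had 25.3, 22.6 and 35.3 FPKM at 4 h in D6, against 33.9 FPKM at 0 h, which was not called, and was called lower at 12 h minus 0 h with a log2FC of -1.45 ± 0.17 (SE; limma, adjusted p = 7.5e-07). Its 12 h libraries had 12.6, 12.0 and 12.6 FPKM in D6 and 14.1, 17.1 and 15.8 FPKM in X2.

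ERF114 (PGSC0003DMG400025582), annotated as an ethylene-responsive transcription factor and taken from the study's list of strong changes, was called in the same directions as ACS3 in D6, higher at 4 h and lower afterwards. Such calls were common, at 26.5% of genes higher at 4 h minus 0 h. The shares called lower were 12.2% at 12 h minus 4 h and 15% at 24 h minus 4 h. ERF114 had 7 reads in the single D6 library of 0 h, and the alternatives run for ACS3 and EIL were not run for it. It had 1.19, 2.82 and 0.920 FPKM at 4 h, against 0.170 FPKM at 0 h, with a log2FC of 2.53 ± 0.70 (SE; limma, adjusted p = 0.0043). It fell again at 12 h minus 4 h with a log2FC of -1.68 ± 0.49 (SE; limma, adjusted p = 0.0077). At 12 h ERF114 kept 24.1% of its 4 h mean in D6 and 20.4% in X2, where ACS3 kept 79.4%. Its 12 h libraries had 0.334, 0.348 and 0.504 FPKM in D6 and 0.337, 0.438 and 0.885 FPKM in X2, which overlapped, and the log2FC of D6 minus X2 was -0.33 ± 0.49 (SE) and not called.

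**Figure D4:**
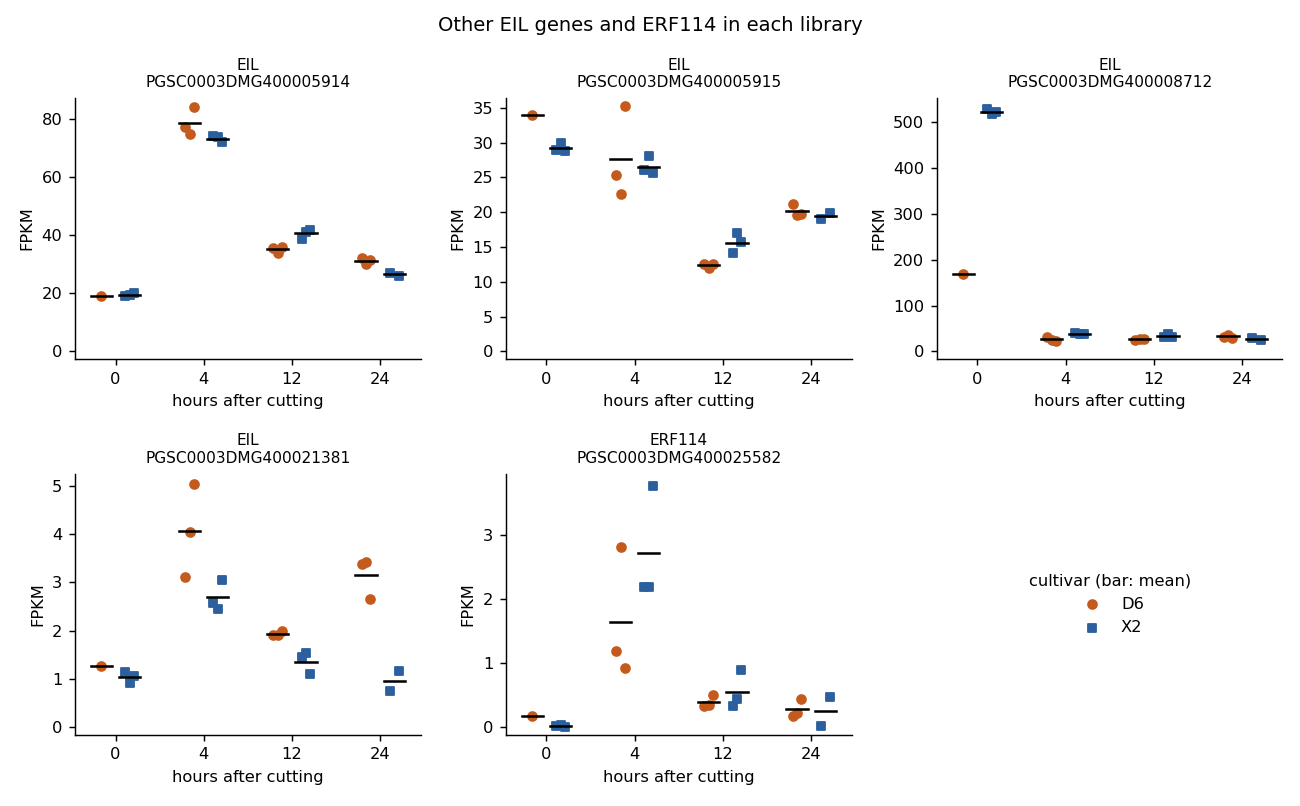
FPKM of the 4 other EIL genes and ERF114 against hours after cutting, each panel on its own scale, with 1 point per library of D6 (circles, left at each time) and X2 (squares, right) and a bar at the group mean. PGSC0003DMG400005914, PGSC0003DMG400021381 and ERF114 are highest at 4 h, and PGSC0003DMG400008712 is highest at 0 h.

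The 3 genes whose pattern was most like that of ACS3 over the 21 libraries, by Pearson r of log2(FPKM + 0.1), were PGSC0003DMG400014542 (r = 0.943), PGSC0003DMG400030844 (r = 0.943) and PGSC0003DMG400014646 (r = 0.942). PGSC0003DMG400014542 averaged 29.3 ± 1.5 FPKM in D6 and 37.2 ± 1.5 FPKM in X2 at 4 h, and 9.01 ± 2.22 FPKM in D6 and 20.5 ± 2.4 FPKM in X2 at 12 h (SD, n = 3 each). PGSC0003DMG400014646 averaged 17.6 ± 3.9 FPKM in D6 and 28.0 ± 1.7 FPKM in X2 at 4 h, and 8.34 ± 3.10 FPKM in D6 and 17.0 ± 0.4 FPKM in X2 at 12 h. These genes carried many more reads than ACS3, and like it they had lower means at 12 h in D6 than in X2, which is part of what r selects.

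The genes most like EIL were PGSC0003DMG400024857 (r = 0.961), PGSC0003DMG401007901 (r = 0.957) and PGSC0003DMG400027093 (r = 0.950). PGSC0003DMG400024857 had 72.6 FPKM in the D6 library of 0 h and averaged 149 ± 19 FPKM in X2 at 0 h (SD, n = 3), and its means at later times were 15.6 to 26.5 FPKM. For PGSC0003DMG400027093 the values at 0 h were 110 FPKM in the D6 library and 119 ± 9 FPKM in X2 (SD, n = 3), with later means of 20.5 to 35.7 FPKM. No description of these 6 genes was in the tables used here, and the libraries share their time points in every such coefficient.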

How the data were processed

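FPKM per gene was analysed for 21 libraries, 10 of D6 and 11 of X2. The authors trimmed the reads, mapped them to SolTub_3.0 with HISAT, used featureCounts to count the reads of each gene, and deposited FPKM that scale these reads by gene length and depth. How reads on near-identical copies were counted, and whether strand was used, is not given in the sources used here, so reads of ACS copies may be split. The submitters' processing notes name instead CASAVA 1.8, Bowtie 0.12.2 and mm8, a mouse build. The length of predicted genes was used as deposited to find the value of 1 read, from which reads were recovered for 29390 genes, each of whose values lay within 0.005 of a whole read plus a relative 1e-06. The step is chosen to give whole reads, so this is no separate check. Of 3507 predicted genes, 1573 had a recovered length equal to the deposited one. For 1934 the recovered length was shorter, at a median ratio of 0.90. Read counts rest on these recovered lengths.

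One model in limma 3.58.1 (R 4.3.3, eBayes with trend, no block) was fitted on log2(FPKM + 0.1) over all libraries, with 1 group per cultivar and time, for the 24286 genes whose mean FPKM reached 0.1. Calls need a |log2FC| of 1 or more with an unadjusted p not above 0.01. Benjamini-Hochberg adjustment is over all genes tested. Each gene was fitted in 9 comparisons that share libraries, and for EIL those against D6 at 0 h are given as values only. On simulated data with 200 genes changed by 2 on the log2 scale, 190 of 199 tested were called in the right direction for D6 4 h minus 0 h and 194 of 199 for D6 12 h minus 4 h. Of the unchanged genes, 252 (1.05%) were called for D6 4 h minus 0 h, with 1 library at 0 h, and 42 (0.175%) for D6 12 h minus 4 h. All simulated libraries shared the same spread, so the simulation cannot check whether the single 0 h library varies like the others. It also changed 200 genes, while 44.5% of genes were called for D6 4 h minus 0 h in the data.

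Columns were assigned by name, and 1 per-sample column was left out. The gene choices were made with earlier results of these data known. The named genes are the 2 chosen, the other EIL genes of the study's table of transcription factors, ERF114, and for each of the 2 the 3 genes with the highest r over all libraries. Other ethylene pathway genes could not be listed, because no description could be joined to their IDs. The length column deposited for predicted genes is in bases and is of the unit other. The rest was done in Python 3.11.15 (scipy 1.17.1, pandas 2.3.3, matplotlib 3.10.9). Intervals on pooled reads are exact (Clopper-Pearson) and cover counting error only. Same-numbered libraries were checked for shared deviations, and alternatives are described at the end.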

Additional observations from a re-analysis of the deposited data

Results flagged for a closer look

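A test of the difference between D6 and X2 in the change between 12 h and 24 h, added after the values were seen, passed the unadjusted thresholds for 3 genes. For ACS3 (PGSC0003DMG400021426) the difference of D6 minus X2 was 2.78 on the log2 scale (95% interval 1.70 to 3.87; limma, adjusted p = 0.0079), and over the 20 alternatives the adjusted p was 0.0028 to 0.051. For EIL (PGSC0003DMG400016747) it was 1.72 (0.48 to 2.96; limma, adjusted p = 0.13), with an adjusted p of 0.069 to 0.48 over 18 alternatives, so it did not pass the correction under any of them, and the values rest on 0 to 20 reads per library. Its call was lost in 7 of 11 fits that left out 1 library, at 1.11 to 2.33 over all 11. It was lost without X2 12 h replicate 1 or 2, X2 24 h replicate 3, D6 24 h replicate 2 or any D6 12 h library. For the other EIL gene PGSC0003DMG400021381 it was 1.15 (0.53 to 1.77; limma, adjusted p = 0.042), with log2FCs of 0.67 in D6 and -0.49 in X2. In X2 the 24 h group has 2 libraries. No group holds enough libraries for a test of single outlying libraries.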

How the results depend on the processing

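Of 20 results, 10 kept their direction and their side of the threshold under each alternative run, and 4 of the 274 alternative values changed sign, all of results that were not called. The 20 include the EIL differences against D6 at 0 h, which are values and no tests. With a pseudocount of 1, which shrinks changes of genes near 1 FPKM, ACS3 lost its calls at D6 4 h minus 0 h (0.87), D6 12 h minus 4 h (-0.85), D6 24 h minus 4 h (-0.93), D6 minus X2 at 12 h (-0.86) and the difference of changes (0.96), EIL lost those at D6 minus X2 at 12 h (-0.19) and the difference of changes (0.29), and ACS3 at D6 12 h minus 0 h turned to 0.021. On recovered reads with limma-voom, ACS3 at D6 4 h minus 0 h (2.32) and EIL at D6 minus X2 at 12 h (-2.90) lost their calls. For EIL, size factors gave -1.06 at D6 minus X2 at 12 h and 1.65 for the difference of changes, both not called, and an adjusted p of at most 0.05 lost the call of that difference at 1.72.

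Leaving out 1 library gave -0.42 to 0.38 for ACS3 at D6 12 h minus 0 h, -0.67 to 0.14 at D6 24 h minus 12 h, and for EIL -1.33 to -0.86 at D6 minus X2 at 12 h, -0.035 to 1.18 at D6 minus X2 at 24 h, and 1.11 to 2.33 for the difference of changes. Same-numbered libraries correlated in their deviations at -0.034 to 0.23 in D6, above 0.1 in 4 of 9 pairs against 0 of 18 pairs with different numbers. In X2 they correlated at -0.11 to 0.13, above 0.1 in 3 of 15 pairs against 2 of 30. Not every pair was above 0.1, so the numbers were not taken as pairs. That choice does not show that same-numbered libraries are independent, and the main p-values leave out any deviation they share. With a replicate block within each cultivar, EIL lost its calls at D6 minus X2 at 12 h (-1.15) and in the difference of changes (1.66), and ACS3 kept 2.10 at D6 4 h minus 0 h. Among genes called in D6 against 0 h, the share higher was 59.6% at 4 h and became 49.1% with size factors. For 12 h these shares were 61.95% and 51.02%, and for 24 h 64.5% and 54.4%. EIL was not tested at a mean FPKM of at least 0.5, since it did not pass that filter. In fits on only the libraries compared, EIL did not pass the filter of 0.1 at D6 12 h minus 4 h, D6 24 h minus 12 h, D6 minus X2 at 12 h or the difference of changes. Those alternatives are therefore missing for it. For D6 at 0 h no library could be left out. After 0 h EIL had 0 to 20 reads per library.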
